A study of Mus musculus with 6 samples.

Results

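The cytosolic ribosomal protein genes were followed in DM1 model myoblasts with and without miR-322/-503 overexpression. The members were the genes whose name is Rpl or Rps followed by a number and at most one further letter a, x or l, together with Rplp0, Rplp1, Rplp2 and Rpsa. Names that go on with -ps, the mark of a pseudogene, were dropped, which left 83 of the 55421 genes in the count table. Both groups were CUG200 cells, a line derived from the mouse myoblast line C2C12 by transfecting a GFP gene with an expanded CTG repeat in its 3' UTR, as a model of myotonic dystrophy type 1 (DM1). All 6 libraries came from total RNA of cells on day 4 of differentiation. The control group (3 libraries) carried the empty vector and the miR-322/-503 group (3 libraries) carried a vector with the miR-322/-503 fragment. The comparison addressed what the ectopic miRNAs change in differentiating DM1 myoblasts. Whether each line was a single clone was not given in the sources used here. The methods mention both biological and technical replicates for the assays in general, without saying which of them the sequenced libraries are. Each group was a stably transfected line of its own, so the vector and the line cannot be told apart. The p-values hold no spread between lines, even if the libraries of a group came from separate cultures. If the libraries of a group did not come from separate cultures, the p-values measure only technical spread.

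A cytosolic ribosome is built from a small subunit, which reads the mRNA, and a large subunit, which joins amino acids and carries a stalk of acidic proteins that recruits elongation factors. Each subunit holds one copy of most of its proteins, and their mRNAs are among the most abundant of any cell. Many of these mRNAs start with a pyrimidine tract (a 5' terminal oligopyrimidine, or TOP, start) through which mTORC1 signalling controls their translation, and muscle cells lean on this output when they grow and build the contractile apparatus.

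The libraries held 73532084 to 92157388 estimated counts, or 18383021 to 23039347 read pairs at about 4 counts per pair. The muscle markers fixed for this report were present in every library, with a summed level of 5017 to 5757 TPM (a transcript abundance corrected for length and library size) in the controls and 6609 to 7177 TPM with miR-322/-503. At an edgeR adjusted p under 0.05, 8 of these 12 markers rose (66.7%, against 13.2% of all tested genes). Of the others 1, Myog, fell (8.33%, against 15.5%). The summed levels of 6 markers each were low for adipocytes (4.85 to 5.07 TPM in controls against 2.26 to 2.91), leukocytes (3.31 to 5.74 against 5.73 to 6.56), osteoblasts and chondrocytes (1.40 to 1.95 against 2.04 to 3.69) and endothelium (0.423 to 0.524 against 1.58 to 2.35). Adipoq, Lep, Emcn, Tie1, Cd3e, Acan and Ibsp were at 0 in all 6 libraries, and most of each low sum came from 1 gene of its list (Cebpa, Cd68, Dmp1 or Bglap, and Tek). The part of these marker levels in the results below was not tested. The hairpin genes of the overexpressed miRNAs had few counts: Mir322 had 1, 7 and 2 in the controls and 17, 0 and 3 with miR-322/-503, and Mir503 had 1, 1 and 2 against 6, 4 and 5. The mature miRNAs were not measured here.

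The mature sequences of the overexpressed pair are shown because the capitals, the seed (bases 2 to 8), set which 7-base sites in a 3' UTR can be matched. Both lie on the minus strand of the X chromosome (GRCm38.p6, RefSeq), miR-322-5p at chrX:53054306-53054327 and miR-503-5p at chrX:53054027-53054049, and their seeds differ in the last base.
mmu-miR-322-5p: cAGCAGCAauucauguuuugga
mmu-miR-503-5p: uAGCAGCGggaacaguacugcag
The match to the miR-322-5p seed, TGCTGCT, was searched on the sense strand of the longest annotated 3' UTR of each gene. It was found in 7 of 77 tested members with a 3' UTR (9.09%) and in 24.3% of the 13458 other tested genes. The members' 3' UTRs were short, with a median length of 173 bases against 1168, and per kilobase the members held 0.314 sites against 0.195. The match to the miR-503-5p seed, CGCTGCT, was found in 0 of 77 members and in 4.85% of the other genes.

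The members with a TGCTGCT match included Rpl6, Rpl22, Rpl28, Rps7, Rps15a and Rps24, and 3 of these sites are printed with the match in capitals. Rpl22 was the one member with a site that passed the test described below, Rps24 was the member with the highest level, and Rps7 had the shortest 3' UTR of the 7, with 262 bases.
Rpl22: tttaactgggcTGCTGCTcctttgtatat
Rps24: cacgtctgctcTGCTGCTtattgggcatt
Rps7: tgggggcattcTGCTGCTgtgaaacagac
The median log2 fold change of the 7 members with a match was -0.22 and that of the members without one was -0.19. For the other genes these medians were 0.02 with and -0.02 without a match. A match of these letters is a description and not a measured site of binding.

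The ribosomal protein genes were slightly lower with miR-322/-503 almost throughout. Of the 83 members, 79 passed the filter on low counts, and 74 of these (93.7%) had a log2 fold change below 0, against 50.7% of all 18140 tested genes. Their median log2 fold change was -0.195, a level 12.6% below control, with quartiles of -0.28 and -0.09. The median over all tested genes was -0.0066, with quartiles of -0.30 and 0.28. With edgeR's quasi-likelihood test and an adjusted p under 0.05 over all genes, 21 members fell (26.6%), and the same call was made for 15.5% of all tested genes. No member rose, against 13.2% of all tested genes: 0 members were higher at an unadjusted p under 0.05 in edgeR, DESeq2 or limma. No member passed the cut-off of a log2 fold change beyond 1 or -1 in either direction, also before adjustment and also by DESeq2 and limma, whereas 5.29% of all tested genes passed it with a fall and 4.59% with a rise. In 32 members (40.5%) every miR-322/-503 library was below every control library, which held for 23.5% of all tested genes. The reverse order was seen in 0 members and in 21.6% of all tested genes. The 58 other tested members did not pass the test, and 35 members in all (44.3%) were lower at an unadjusted p under 0.05, as were 20.8% of all tested genes.

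**Figure D1:**
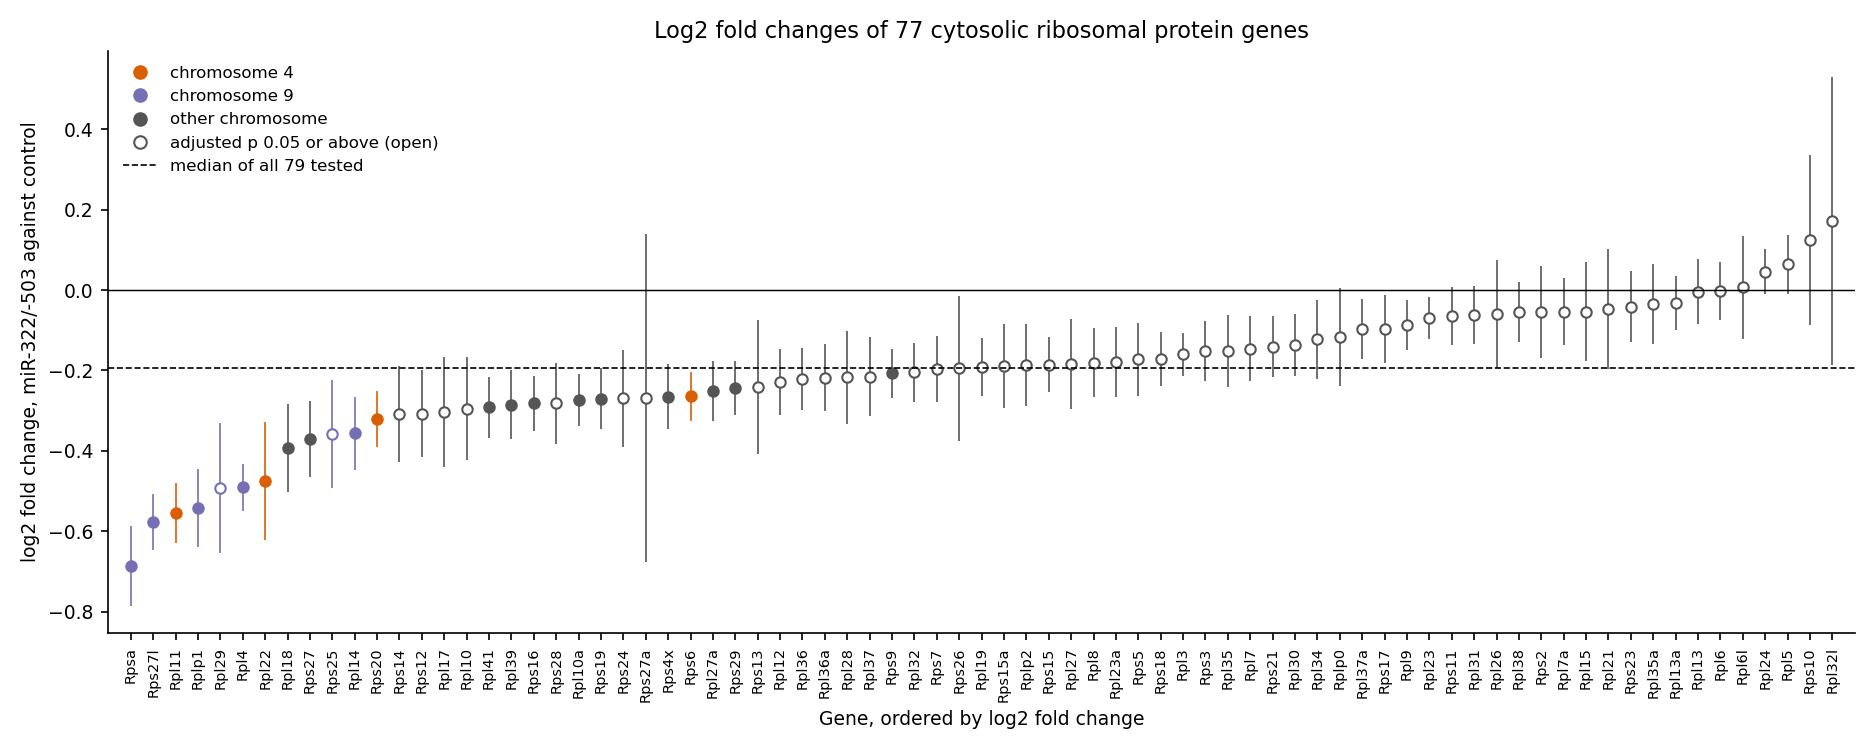
Each point is the log2 fold change of 1 of 77 tested ribosomal protein genes, miR-322/-503 against control (3 libraries each), with bars of 1 standard error of the edgeR fit, ordered from lowest to highest. Points run from -0.69 (Rpsa) to 0.17 (Rpl32l) around the dashed median of -0.195 over all 79, filled points have an adjusted p under 0.05, and members on chromosomes 4 and 9 hold the left end.

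By subunit, the share of members that fell stood nearer to the 15.5% of all tested genes in the large subunit than in the small one. In the large subunit 9 of 45 tested members fell (20%), with a median log2 fold change of -0.18. In the small subunit 11 of 31 fell (35.5%), with a median of -0.24. Of the 3 stalk genes 1 fell, with a median of -0.19. The difference between the subunits was not tested. In bulk samples fewer cells of a type and less RNA per cell cannot be told apart.

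Taken per transcript, the 83 members made up 7.30%, 7.76% and 6.71% of all TPM in the 3 control libraries and 6.28%, 6.37% and 5.84% in the 3 miR-322/-503 libraries. The groups did not overlap, and the mean share was 7.26% ± 0.528 (SD, n = 3) against 6.16% ± 0.285 (SD, n = 3), 15.1% lower. The mitochondrially encoded genes moved the other way and took 11.0%, 10.5% and 13.8% of TPM in the controls against 15.1%, 14.4% and 18.8%. With those genes left out of the total, the members' share was 8.22% ± 0.443 against 7.34% ± 0.138 (SD, n = 3), 10.7% lower, and the groups still did not overlap. The large subunit went from 3.84% to 3.36% of TPM, the small subunit from 2.87% to 2.38% and the stalk from 0.539% to 0.422%.

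The control libraries differed among themselves by about as much as the groups did. Relative to the control mean, the members' median log2 level was 0.02, 0.10 and -0.10 in control replicates 1, 2 and 3, and -0.16, -0.20 and -0.19 in miR-322/-503 replicates 1, 2 and 3. Control replicate 3 was the lowest control for 58 of the 79 members and control replicate 2 the highest for 55. Control replicate 3 also had the highest mitochondrial share of the controls. Its part in the result was not tested, but without it 30 members fell (13.3% of all genes tested in that fit were lower), and without control replicate 2 the count was 12 (12.1%).

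**Figure D2:**
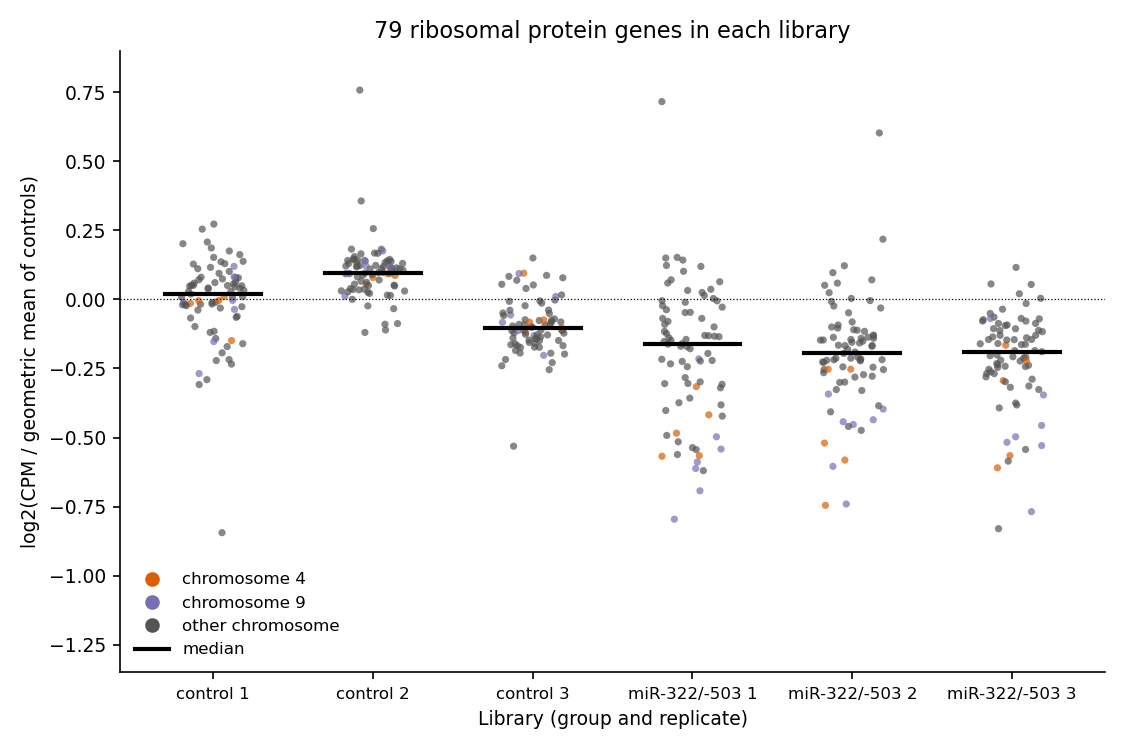
Each point is 1 of 79 ribosomal protein genes in 1 library, as the log2 of its CPM (counts scaled to the library size with TMM factors) over the geometric mean of the 3 controls, and thick lines are medians. The medians of the miR-322/-503 libraries lie between -0.20 and -0.16, below the lowest control median of -0.10.

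The lowest fold change belonged to Rpsa (ENSMUSG00000032518, chromosome 9), a small subunit protein also known as the laminin receptor precursor. Its level was 2417, 2484 and 1985 CPM in the controls and 1569, 1367 and 1341 CPM with miR-322/-503, so that the groups were well apart. Its log2 fold change was -0.69 (SE 0.10, edgeR adjusted p = 0.00195), a level 37.9% below control. Rps27l, a p53-responsive paralog of Rps27, had 82.4, 89.5 and 76.4 CPM in the controls and 54.9, 54.3 and 57.2 CPM with miR-322/-503. The miR-322/-503 libraries were nearly equal and all below the controls, and the log2 fold change was -0.58 (SE 0.07, edgeR adjusted p = 0.0008).

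Rpl11, which joins Rpl5 and the 5S rRNA and in free form binds Mdm2, had 350, 388 and 325 CPM in the controls and 239, 247 and 239 CPM with miR-322/-503 (log2 fold change -0.55, SE 0.07, edgeR adjusted p = 0.00134). Every miR-322/-503 library was below every control library. Rpl5, its partner in that complex, had 584, 530 and 505 CPM against 597, 536 and 559 CPM (edgeR adjusted p = 0.575), with overlapping groups (Rpl5 was chosen for its role after its values were seen). Rpl11 lies on chromosome 4 and Rpl5 on chromosome 5. Less the medians of the other genes of these chromosomes, their log2 fold changes were -0.37 and -0.11. The difference between them was not tested.

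Rpl4, which lines the exit tunnel of the large subunit, had 1622, 1745 and 1543 CPM in the controls and 1158, 1194 and 1142 CPM with miR-322/-503. The groups did not overlap, and the log2 fold change was -0.49 (SE 0.06, edgeR adjusted p = 0.000731). Rpl22, an RNA-binding large subunit protein, had 146, 168 and 172 CPM against 109, 96.2 and 144 CPM, so that 1 miR-322/-503 library came close to the lowest control (log2 fold change -0.48, SE 0.15, edgeR adjusted p = 0.0479). Rpl18, the one gene among the 8 largest falls that lies on neither chromosome 4 nor 9, had 248, 199 and 204 CPM against 166, 181 and 148 CPM (log2 fold change -0.39, SE 0.11, edgeR adjusted p = 0.0329). These groups did not overlap either.

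The stalk genes differed in size of change as measured, and they lie on chromosomes that were shifted by different amounts. Rplp1, an acidic stalk protein, had 708, 868 and 793 CPM in the controls and 487, 582 and 558 CPM with miR-322/-503, with no overlap (log2 fold change -0.54, SE 0.10, edgeR adjusted p = 0.005). Rplp2, which pairs with Rplp1, had 108, 103 and 92.1 CPM against 99.1, 89.7 and 77.3 CPM, with overlapping groups (edgeR adjusted p = 0.226). Rplp0, the base on which the stalk stands and a common reference gene in qPCR, had 1654, 1511 and 1320 CPM against 1617, 1271 and 1249 CPM, again overlapping (log2 fold change -0.12, SE 0.12, edgeR adjusted p = 0.532). Rplp1 lies on chromosome 9, Rplp2 on chromosome 7 and Rplp0 on chromosome 5. Less the median of the other genes of its chromosome, the log2 fold change was -0.28 for Rplp1, -0.20 for Rplp2 and -0.29 for Rplp0. Whether the stalk genes differ from each other was not tested.

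Several members had a paralog under the rule, and some of them are given here. Rps27, the partner of Rps27l, had 211, 248 and 220 CPM in the controls and 156, 186 and 183 CPM with miR-322/-503, with no overlap (log2 fold change -0.37, SE 0.09, edgeR adjusted p = 0.0239). Rpl39, a small protein of the exit tunnel, had 158, 131 and 136 CPM against 121, 108 and 120 CPM and fell (log2 fold change -0.29, SE 0.09, edgeR adjusted p = 0.0445). Rps4x, the X-linked form of Rps4, had 878, 868 and 755 CPM against 748, 663 and 669 CPM and fell (log2 fold change -0.27, SE 0.08, edgeR adjusted p = 0.0439). The groups of Rpl39 and Rps4x did not overlap, although the gap between them was small. Rpl10, a large subunit protein that joins late in assembly, had 411, 320 and 299 CPM against 310, 271 and 259 CPM, with overlapping groups (edgeR adjusted p = 0.135).

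Rpl3, near the peptidyl transferase centre, had 368, 384 and 361 CPM in the controls against 329, 329 and 336 CPM, and although the groups did not overlap it missed the threshold (log2 fold change -0.16, SE 0.05, edgeR adjusted p = 0.0613). It passed in 4 of 18 other fits, among them limma on log2(TPM + 1), where the log2 fold change was -0.29. Its paralog Rpl3l, known from heart and skeletal muscle, had 0 counts in all 3 controls and 9, 0 and 12 counts with miR-322/-503, which at about 4 counts per read pair is no more than the 3 read pairs taken as the floor, so no fold is given. Rpl10l, Rpl39l and Rps4l had 0 counts in all 6 libraries, which with 18383021 to 23039347 read pairs allows up to 3 pairs per library, for counting error only. These 4 members were not tested.

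Levels between genes were compared per length, in TPM. The median member had 711 TPM over the 6 libraries and the median tested gene 10.3 TPM. Of the 83 members, 73 were above 100 TPM and 23 above 1000 TPM, and 21 were among the 100 genes with the highest TPM. The highest was Rps24, a small subunit protein, with 3553, 4357 and 3950 TPM in the controls and 2963, 3543 and 3301 TPM with miR-322/-503. The groups just failed to overlap in TPM but overlapped in CPM (log2 fold change -0.27, SE 0.12, edgeR adjusted p = 0.142). Rplp1 followed with 3005 ± 280 TPM against 2036 ± 182 TPM (SD, n = 3), and Rpl23a, which sits by the tunnel exit, with 2555 ± 217 TPM against 2228 ± 146 TPM. The control libraries of Rplp1 (2726 to 3285 TPM) and Rpl23a (2373 to 2796 TPM) overlapped, as did their miR-322/-503 libraries. Within each library, however, Rplp1 was above Rpl23a in all 3 controls and below it in all 3 miR-322/-503 libraries (1877, 2235 and 1997 TPM against 2091, 2381 and 2212 TPM), a turn that was seen in the values and not tested.

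**Figure D3:**
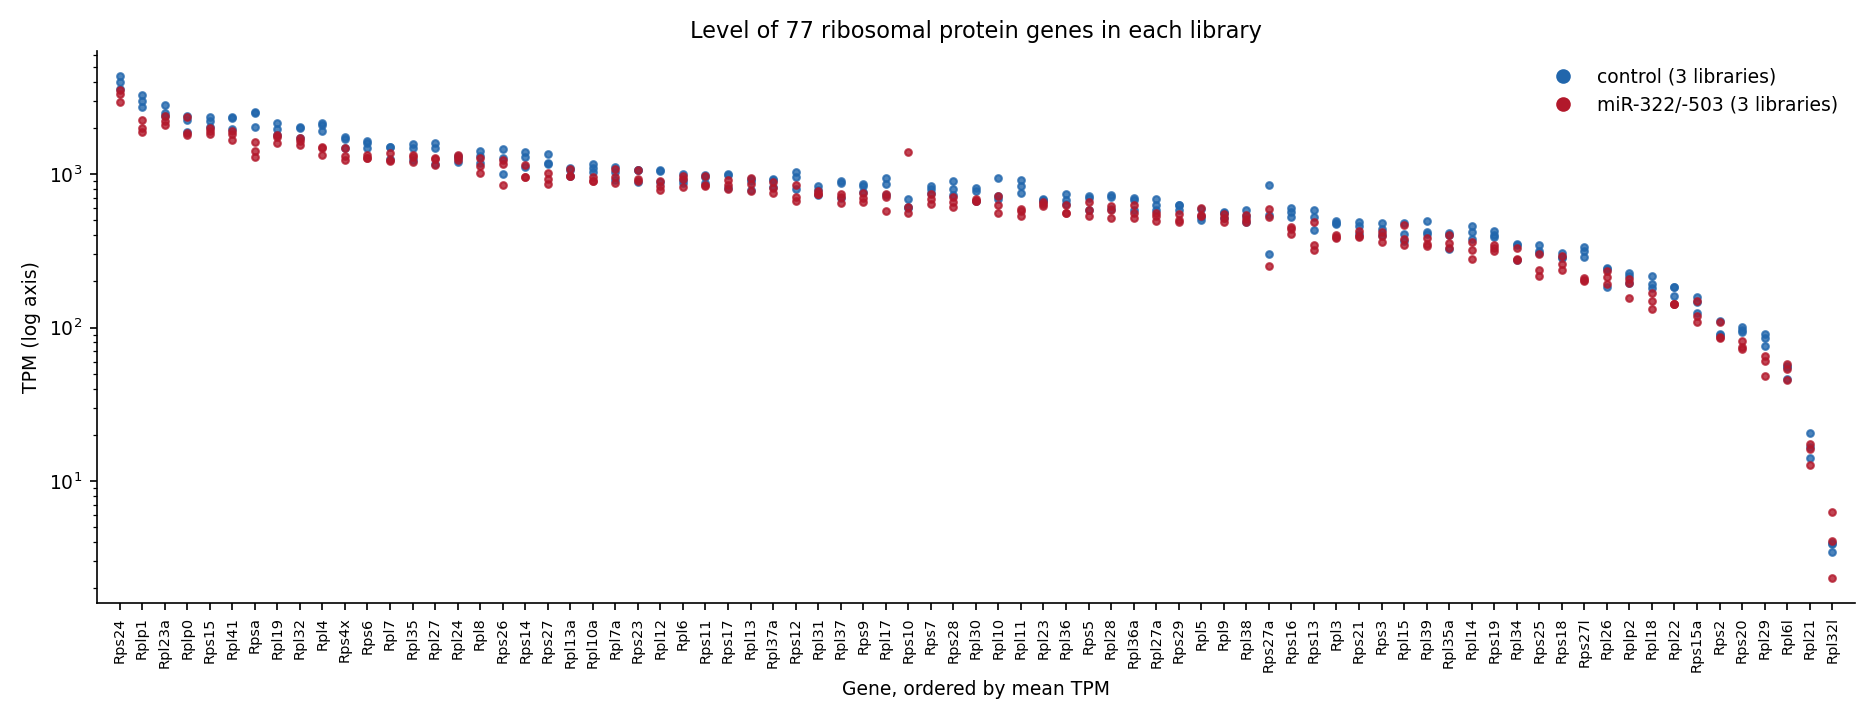
TPM of 77 tested ribosomal protein genes in each of the 6 libraries on a log axis, blue for control and red for miR-322/-503, ordered by mean TPM. The order runs from Rps24 at 3611 TPM to Rpl32l at 4.00 TPM, and 1 red point stands out at Rps10, where miR-322/-503 replicate 2 had 1390 TPM.

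A few members varied more between libraries than between groups (named after their values were seen). Rps10 had 613, 690 and 600 TPM in the controls and 556, 1390 and 610 TPM with miR-322/-503, so its log2 fold change of 0.13 rested on 1 library. Rps27a, a fusion of ubiquitin and a small subunit protein, had 302, 851 and 542 TPM against 522, 595 and 250 TPM and had the largest standard error of the members (0.41). Rpl24, Rpl5, Rpl6l and Rpl32l were the other members above 0, and none of them passed the test.

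The falls were unevenly spread over the genome, a split made after the values were seen. The 12 members on chromosomes 4 and 9 had a median log2 fold change of -0.49, 10 of them fell (83.3%), and in all 12 the groups did not overlap. The 2048 other tested genes of these chromosomes were also shifted, with a median of -0.22 and 29.2% called lower, and in 41.5% of them every miR-322/-503 library was below every control library. On the other chromosomes 11 of 67 members fell (16.4%), with a median of -0.18, while the other genes there had a median of 0.02 and 13.7% were called lower. All 5 tested members on chromosome 4 fell, among them Rpl11, Rpl22, Rps6 and Rps20, and the other genes of that chromosome had a median of -0.18, with 26.1% called lower. On chromosome 9, Rpl4, Rpl14, Rplp1, Rps27l and Rpsa fell, Rpl29 and Rps25 did not pass the test, and the other genes had a median of -0.27, with 32.3% called lower. On chromosome 5, 0 of 5 members passed the test in edgeR (0 also at an unadjusted p under 0.05 and by DESeq2 or limma), and the members' median was -0.05 beside 0.17 for the other genes, of which 8.24% were called lower and 21.7% higher. On chromosome 7, 5 of 14 fell (35.7%, beside 166 of 1389 other genes), with a median of -0.20 beside 0.02.

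Subtracting the median of the other genes of the same chromosome left the members' median at -0.19, with 73 of 79 below 0. This adjusted median was -0.25 on chromosomes 4 and 9 (12 of 12 below 0) and -0.19 on the other chromosomes (61 of 67 below 0). The same subtraction took Rpsa from -0.69 to -0.42, Rps27l from -0.58 to -0.31, Rpl11 from -0.55 to -0.37, Rplp1 from -0.54 to -0.28, Rpl4 from -0.49 to -0.22 and Rpl22 from -0.48 to -0.29. It took Rpl14 from -0.36 to -0.09, Rps20 from -0.32 to -0.14 and Rps6 from -0.26 to -0.08. Rplp0 on chromosome 5 went from -0.12 to -0.29 and Rpl18 on chromosome 7 from -0.39 to -0.41. These differences have no test. Why whole chromosomes were shifted was not tested. The 8 members lower in all 18 other fits that were tried, which include Rpsa, Rps27l, Rpl11, Rplp1, Rpl4, Rps20 and Rps6, lie on chromosomes 4 and 9.

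**Figure D4:**
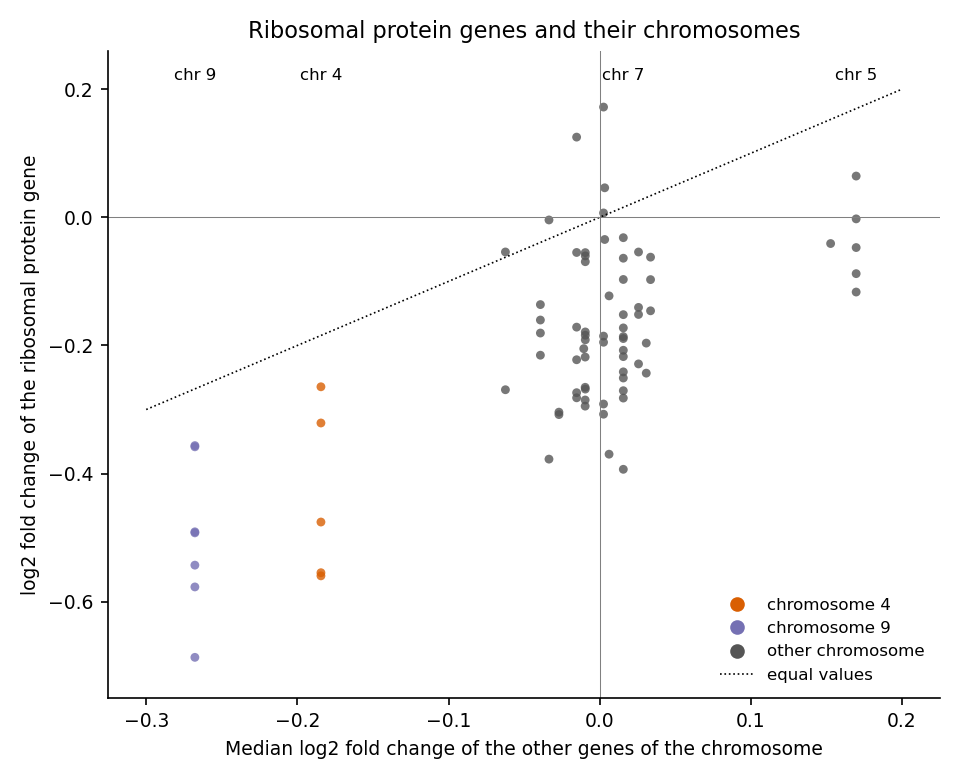
Each point is 1 of the 79 tested ribosomal protein genes, placed horizontally by the median of its chromosome's other genes (log2 fold change) and vertically by its own log2 fold change, and the dotted line marks equal values. The 12 coloured members on chromosomes 4 and 9 (medians of the other genes -0.18 and -0.27) lie below the line, as do 61 of the 67 others.

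The starts of the genes are shown because a TOP start is the feature that many ribosomal protein mRNAs share and that the rule did not use. Windows around the annotated RefSeq starts (GRCm38.p6) were given for 61 members. A TOP start, taken as a C at the annotated start followed by at least 4 further C or T on the sense strand, was found in 14 of the 61 members (23.0%) and in 3.01% of 27025 genes. Each printed window holds 15 bases before the start and 15 from it, with the pyrimidine run from the start in capitals and no capitals where the start is no pyrimidine. The windows are Rps6 at chr4:86857353-86857382 (minus), Rps27 at chr3:90213634-90213663 (minus), Rpl14 at chr9:120571502-120571531 (plus), Rpl15 at chr14:18270972-18271001 (minus), Rpsa at chr9:120127751-120127780 (plus) and Rpl4 at chr9:64173372-64173401 (plus).
Rps6: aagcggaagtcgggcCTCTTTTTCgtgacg
Rps27: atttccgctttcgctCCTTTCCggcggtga
Rpl14: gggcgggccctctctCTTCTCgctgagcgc
Rpl15: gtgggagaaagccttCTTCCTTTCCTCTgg
Rpsa: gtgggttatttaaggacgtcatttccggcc
Rpl4: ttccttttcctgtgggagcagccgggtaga
Rps6, Rps27 and Rpl14 fell and have such a start. Rpl15, with the longest run of the 14 (13 bases), had a log2 fold change of -0.05. Rpsa and Rpl4, which fell by more, have none at the annotated start. The median log2 fold change was -0.16 for the 14 tested members with a TOP start and -0.21 for the 44 tested members with a window and no such start. Annotated starts can lie some bases away from those used in these cells, and the runs say nothing of translation, which was not measured.

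Rps6, the target of the S6 kinases, had 783, 834 and 742 CPM in the controls and 631, 659 and 673 CPM with miR-322/-503, with no overlap (log2 fold change -0.26, SE 0.06, edgeR adjusted p = 0.0163). Rps20, a small subunit head protein, had 168, 178 and 160 CPM against 126, 142 and 138 CPM, also with no overlap (log2 fold change -0.32, SE 0.07, edgeR adjusted p = 0.0116). Rpl14, a large subunit protein, had 239, 221 and 201 CPM against 189, 167 and 160 CPM and likewise fell without overlap (log2 fold change -0.36, SE 0.09, edgeR adjusted p = 0.0235). Beyond the medians of their chromosomes, the log2 differences of Rps6, Rps20 and Rpl14 were -0.08, -0.14 and -0.09. Rps6, Rps20 and Rpl14 were named for their chromosome or start after their values were seen.

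Ribosomal protein genes have many processed pseudogenes, and reads can be split among near-identical copies. The table held 307 genes named as a member followed by -ps, for 62 members, and 209 of them had counts. Their counts came to 14.4% to 15.1% of the members' counts in every library. In 21 members the pseudogene counts exceeded 10% of the member's own, and for Rps2 (2497%), Rpl21 (1080%), Rpl3 (141%), Rpl35a (122%) and Rps26 (120%) they exceeded the member, so the values of these genes are uncertain. The 139 tested pseudogenes had a median log2 fold change of -0.20, with 10 lower (7.19%, below the 15.5% of all tested genes) and 0 higher in edgeR (1 higher at an unadjusted p under 0.05, and 0 higher after adjustment by DESeq2 or limma). With pseudogene counts added to their members, 22 members fell (15.7% of all genes tested in that fit).

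Other genes of the ribosome and of translation were read beside the members. Of 9 ribosomal proteins and paralogs outside the name rule, 1 fell (11.1%, against 15.5% of all tested genes) and 0 rose (against 13.2%) in edgeR, with a median log2 fold change of -0.20 (1 higher at an unadjusted p under 0.05, and 0 after adjustment by DESeq2 or limma). The one that fell was Rack1, a scaffold on the small subunit, with 589 ± 64.0 CPM against 457 ± 41.8 CPM (SD, n = 3, log2 fold change -0.37, edgeR adjusted p = 0.029). Fau, Rps3a1, Rps27rt, Rpl36al, Rpl7l1 and Rpl37rt had log2 fold changes between -0.30 and -0.0011. Rpl22l1, the paralog of Rpl22, had 25.6, 22.1 and 30.1 CPM in the controls and 30.7, 29.5 and 37.3 CPM with miR-322/-503, with overlapping groups (log2 fold change 0.33, SE 0.14, edgeR adjusted p = 0.125).

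Of 104 ribosome biogenesis genes, 19 fell (18.3%, near the 15.5% of all tested genes) and 3 rose (2.88%, against 13.2%), with a median log2 fold change of -0.10. Those with the largest changes were Nop56, a core protein of box C/D snoRNPs (83.9 ± 3.34 CPM against 55.0 ± 5.21 CPM, edgeR adjusted p = 0.00106), Rcl1, which acts in small subunit rRNA processing (21.5 ± 0.584 against 14.3 ± 0.629 CPM, edgeR adjusted p = 0.00123), and Nop10, of box H/ACA snoRNPs (56.5 ± 2.80 against 41.8 ± 2.67 CPM, edgeR adjusted p = 0.00333). All 3 fell, with log2 fold changes of -0.61, -0.59 and -0.44.

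Of 43 translation initiation genes, 6 fell (14.0%, against 15.5% of all tested genes) and 2 rose (4.65%, against 13.2%), with a median of -0.03. Pabpc4, a poly(A)-binding protein, had a log2 fold change of -0.42 (edgeR adjusted p = 0.0162) and Eif3i, a subunit of eIF3, of -0.38 (edgeR adjusted p = 0.0199), both on chromosome 4, while Eif4e2, a cap-binding protein that represses translation, rose by 0.40 (edgeR adjusted p = 0.00259). Of 16 tested elongation, termination and recycling genes (17 listed), 3 fell (18.8%, against the same 15.5%) and 1 rose (6.25%, against 13.2%), with a median of -0.08. Abce1, which splits ribosomes after termination, went from 693 ± 16.5 to 364 ± 24.5 CPM (SD, n = 3, log2 fold change -0.93, edgeR adjusted p = 5.28e-05). Eif5a2, a paralog of eIF5A, went from 23.7 ± 1.70 to 11.4 ± 0.669 CPM (log2 fold change -1.06), and Eef1a1, the factor that delivers aminoacyl-tRNA, from 10780 ± 532 to 8371 ± 241 CPM (log2 fold change -0.36). Their falls exceeded the spread of the libraries. Eef1a1 lies on chromosome 9, where the genes other than the members had a median log2 fold change of -0.27. On chromosomes 8 (Abce1) and 3 (Eif5a2) these medians were -0.03 and 0.0062.

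Of 33 tested regulators of growth signalling (34 listed), 8 fell (24.2%, against 15.5% of all tested genes) and 4 rose (12.1%, against 13.2%), with a median of 0.01. Ddit4l, an inhibitor of mTORC1, fell by 2.52 on the log2 scale, from 25.8, 27.1 and 27.1 CPM to 4.63, 4.60 and 4.67 CPM. Of the genes for the RSK kinases, Rps6ka1 passed the test as lower (edgeR adjusted p = 0.00413) on 60, 76 and 57 counts in the controls and 9, 14 and 14 counts with miR-322/-503, the latter no more than 3.5 read pairs a library and at about the floor of 3, so no fold is given. Rps6ka3 had 33.6 ± 2.49 CPM against 70.0 ± 13.0 CPM (SD, n = 3, log2 fold change 1.06, edgeR adjusted p = 0.00089). The members' protein product and the kinases' activity were not measured.

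The mitochondrial ribosome is a separate machine encoded by Mrpl and Mrps genes in the nucleus. Of its 78 tested genes 4 fell (5.13%, against 15.5% of all tested genes) and 3 rose (3.85%, against 13.2%), with a median log2 fold change of 0.02, and their share of TPM was 0.404% ± 0.0211 against 0.401% ± 0.0175 (SD, n = 3). Mrps27 (log2 fold change 0.62) and Mrpl1 (0.54) rose and Mrpl52 (-0.41) fell. Of 33 tested genes encoded in the mitochondrial genome, 10 rose (30.3%, against 13.2% of all tested genes) and 0 fell (against 15.5%) in edgeR, with a median of 0.44 (0 lower at an unadjusted p under 0.05, and 0 after adjustment by DESeq2 or limma). The difference between the cytosolic and mitochondrial lists was not tested.

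**Figure D5:**
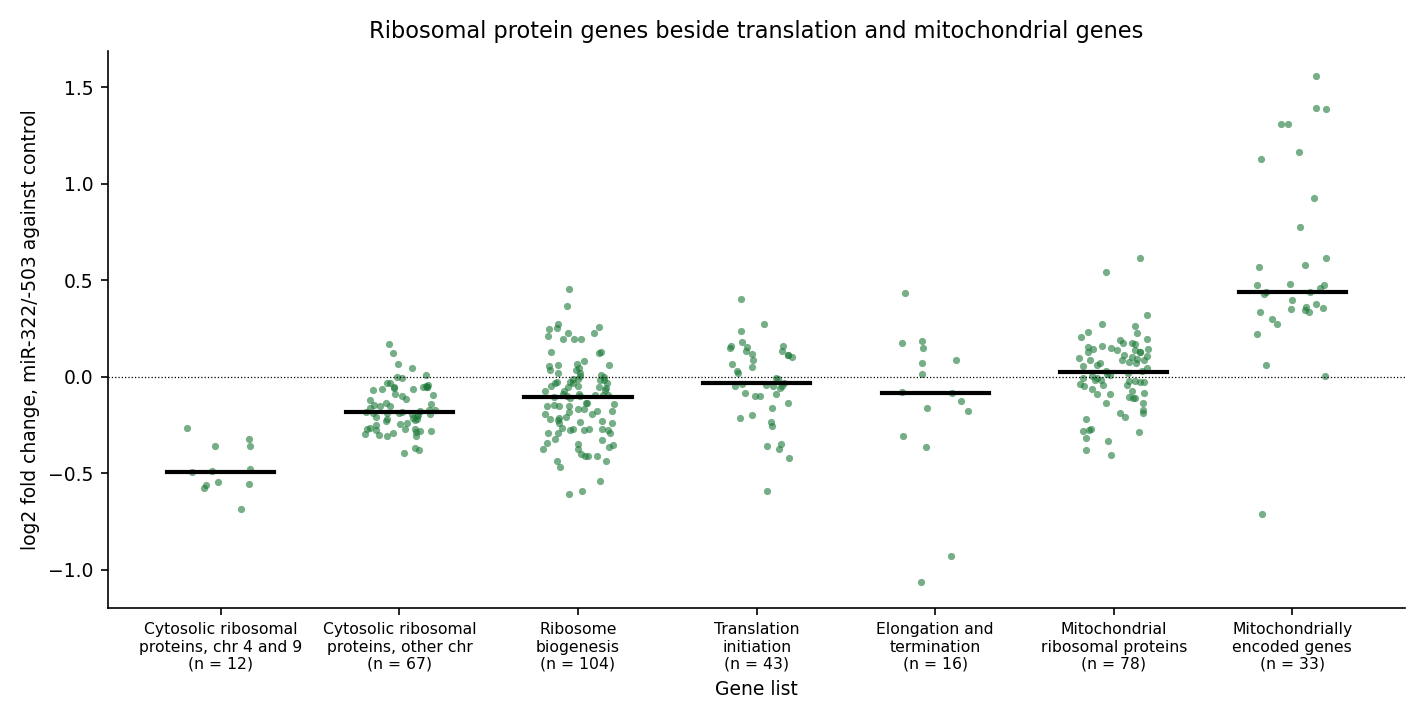
Each point is the log2 fold change of 1 tested gene, miR-322/-503 against control, and thick lines are the medians of each list. The cytosolic ribosomal protein genes lie mostly below 0 with medians of -0.49 on chromosomes 4 and 9 and -0.18 elsewhere, the mitochondrial ribosomal proteins centre on 0.02, and the mitochondrially encoded genes on 0.44.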

How the data were processed

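Per the labels and the study's methods, the authors' pipeline was Trim Galore for read trimming, HISAT2 for alignment (GRCm38) and StringTie for the gene tables. Versions, annotation, strand setting and poly(A) selection were not given in the sources used here. The deposited matrix holds estimated counts from StringTie, about 4 per read pair as judged from the covered bases, which a count model fits only as an approximation. The deposited per-library tables hold coverage (signal), FPKM and TPM values as the authors' StringTie runs gave them. TPM was used for levels between genes, and coverage only to find the bases behind 1 count. FPKM was not used further.

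Counts were filtered (filterByExpr), normalized with TMM (factors 0.977 to 1.035) and tested with edgeR 4.0.16 (R 4.3.3), glmQLFit and glmQLFTest. The test ran over 18140 genes, with Benjamini-Hochberg adjustment and a threshold of 0.05. Rounding was applied only in the alternative fit on counts per read pair. CPM values are TMM-scaled. DESeq2 1.42.0 and limma 3.58.1 on log2(TPM + 1) or log2(TPM + 0.1) were alternatives. The script was tested on simulated data. Of the count table's identifiers, 55240 are in GENCODE M21, which gave 3' UTRs. Start windows came from RefSeq.

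Libraries were grouped by their labels, and each group's 3 libraries were compared without a block. Deviations of same-numbered libraries from their group means correlated at 0.131, 0.0687 and 0.0451, so the numbers were not taken to pair them. Members and lists were chosen with earlier results of these data known. Named genes were the 8 largest falls and rises among called members without overlap, the paralog pairs, stalk genes and Rpsa, the highest and lowest 3 by TPM, the 3 largest called changes of each companion list, and all ribosomal proteins outside the name rule. Values of a few genes that this rule covers are not reported here, and 77 of the 79 tested members are drawn in the plots that name each gene.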

Additional observations from a re-analysis of the deposited data

How the results depend on the processing

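The 21 lower members became 12 with total counts only (15.2% of members, near the 13.3% of all genes in that fit), 35 with the replicate block (44.3% against 16.9%) and 11 of 67 with the members on chromosomes 4 and 9 left out (16.4%, beside 13.7% of the other genes outside them; chosen after seeing the data). Leaving out each library in turn gave 11 to 30: without control replicate 1, 2 and 3 there were 14 (17.7% of members against 12.1% of all genes), 12 (15.2% against 12.1%) and 30 (38.0% against 13.3%), and without miR-322/-503 replicate 1, 2 and 3 there were 13 (16.5% against 13.0%), 13 (16.5% against 12.6%) and 11 (13.9% against 11.8%). The other fits gave 16 to 25 (20.25% to 31.25% of tested members, against 8.86% to 18.6% of all genes). The higher count and both counts past the cut-offs stayed at 0 in every fit. The median log2 fold change stayed between -0.249 and -0.149, and the summed TPM difference (-10936) between -13685 and -8419. The companion lists' 54 calls among 283 tested genes became 86 with the replicate block, although the numbers were not taken to pair the libraries (each correlated best with its own number, a hint from the data only). Of all tested genes, 15.5% were called lower and 13.2% higher in the main fit, and 16.9% were called lower with the block. Rpl37rt, near 0, changed sign: 0.0075 with DESeq2, 0.0098 with RLE factors, 0.017 with upper-quartile factors, 0.044 with total counts, 6.54e-06 without a filter, 0.00049 with at least 10 counts, 0.00996 per read pair, 0.012 with the replicate block, and -0.163 to 0.145 without 1 library. Among named calls, Rpl39 missed the threshold in 11 of 18 fits, Rps4x in 9, Rpl22 in 8, Rack1 and Mrpl1 in 7, Eif3i in 6, Rpl14 in 5, Rpl18 in 4, Rps27 and Eif4e2 in 2 and Pabpc4 in 1. Conversely, Rpl3 passed in 4 fits, Rpl36al in 3 and Rpl10 in 2 (each including the replicate block), Rpl23a, Rplp2, Rps24, Rpl7l1, Rps3a1 and Rpl22l1 passed with the replicate block only, and Rps27rt passed without control replicate 1. The cause of these changes was not tested.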
